A study of Mus musculus with 45 samples.

Results

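The 6 genes described here, S100a1, S100a4, S100a6, S100a10, S100a11 and S100a13, encode small calcium-binding proteins of the S100 family and were measured in mouse induced pluripotent stem cells (iPSCs). They were chosen by name, with earlier results of these arrays known: S100a4 and S100a6 were selected on a higher signal at passage 16 than at passage 4 in all lines, so their passage difference, within and between origins and mice, is given below as a description, with no test. They are 6 of the 11807 genes named in the table of passages 4, 6 and 16, read by 6 of its 22690 probe sets, and 5 of the 12394 genes named in the table of passage 10, read by 7 of its 22690. S100a11 was not named at passage 10, because its probe set carries several gene symbols on that platform. Both tables were normalized separately, so no level at passage 10 is set against one at another passage.

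The 45 arrays form 15 groups of 3 clones. In lines from mouse 2, tail tip fibroblasts, splenic B cells, T cells and bone marrow granulocytes were reprogrammed, and each origin was profiled at passages 4, 10 and 16. From mouse 1, granulocyte lines were profiled at passage 4 and passage 16, and skeletal muscle precursor lines at passage 6. All lines came from a secondary system, in which somatic cells of an animal that already carries the reprogramming transgenes are converted again, and all were grown on irradiated embryonic fibroblasts in medium with serum and LIF, the fibroblasts being removed by preplating before RNA extraction. The labels used here give no strain, age or transgene. Each group comes from 1 mouse, so p-values measure how clones of an animal vary, not how animals do.

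S100 proteins are EF-hand dimers: calcium opens a hydrophobic face on each subunit, which then binds a partner and changes its activity. S100a4, also known as fibroblast-specific protein, binds non-muscle myosin and is abundant in fibroblasts and motile cells, and S100a6, or calcyclin, is abundant in proliferating fibroblasts and epithelia. S100a10 has lost calcium binding and forms a tetramer with annexin A2 at the cell membrane, and S100a11 binds annexin A1. S100a13 takes part in the release of fibroblast growth factor 1, and S100a1 is best known from heart and skeletal muscle, where it acts on ryanodine receptors.

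All 6 genes lie on chromosome 3. In the RefSeq annotation of GRCm38.p6, S100a1 (chr3:90511034-90514330) and S100a13 (chr3:90514233-90524581) lie head to head, and their gene models overlap by 98 bases. S100a4 (chr3:90603770-90606045) ends 6848 bases before S100a6 (chr3:90612894-90614414), with 1 protein-coding gene between them. S100a11 (chr3:93520496-93526288) and S100a10 (chr3:93555117-93564645) are neighbours with 0 protein-coding genes between them. The 250 bases before the gene start are shown for S100a4 and S100a6, which were higher at passage 16, and for S100a11 as a family member that was not selected on passage. They are RefSeq sequences of GRCm38.p6, on the plus strand, written 5′ to 3′, from chr3:90603520-90603769, chr3:90612644-90612893 and chr3:93520246-93520495. Capitals mark matches on either strand to 3 motifs. The TATA box was searched as TATAAA. The site bound by the AP-1 family of factors was searched as TGANTCA, where N is any base. The box bound by Sp1 was searched as GGGCGG, and no match overlaps one of another motif.
S100a4: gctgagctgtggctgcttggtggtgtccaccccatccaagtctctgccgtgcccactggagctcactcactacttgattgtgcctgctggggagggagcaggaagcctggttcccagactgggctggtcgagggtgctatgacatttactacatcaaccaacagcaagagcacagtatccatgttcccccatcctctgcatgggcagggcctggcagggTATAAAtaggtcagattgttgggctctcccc
S100a6: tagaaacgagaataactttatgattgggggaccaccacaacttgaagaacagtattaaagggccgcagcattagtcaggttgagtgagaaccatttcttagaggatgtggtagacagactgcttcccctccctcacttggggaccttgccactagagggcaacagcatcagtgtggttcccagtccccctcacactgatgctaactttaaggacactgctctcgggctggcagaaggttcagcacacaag
S100a11: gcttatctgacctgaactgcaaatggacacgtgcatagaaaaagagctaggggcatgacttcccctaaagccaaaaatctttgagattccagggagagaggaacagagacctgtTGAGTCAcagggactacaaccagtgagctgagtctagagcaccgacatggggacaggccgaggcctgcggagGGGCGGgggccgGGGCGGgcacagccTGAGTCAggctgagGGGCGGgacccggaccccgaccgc
The S100a4 window holds 1 TATAAA, whose first base lies at -31 from the gene start, and the share of all 32851 windows with such a match was 12.4%. The S100a11 window holds 2 matches to TGANTCA and 3 to GGGCGG, found in 6.75% and 32.7% of all windows. The S100a6 window holds 0 matches to these letters. It holds 3 CpG dinucleotides and the S100a4 window 2, against 11 in that of S100a11 and a median of 6 over all windows. A match is a description of these letters, and not a binding site.

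Values are RMA signals on the log2 scale, so a difference of 1 is a doubling. Within groups, the mean correlation of an array with its group ranged from 0.921 to 0.995 at passages 4, 6 and 16 and from 0.995 to 0.998 at passage 10. The lowest belonged to granulocyte clone 3 of mouse 2 at passage 16. The member calls lost without it are named below, and the group means of those lines include it. The summed level of 9 pluripotency genes, given as their mean, lay between 10.88 (passage 16 granulocyte lines of mouse 2) and 11.46 (the same lines at passage 4), and that of 11 granulocyte genes, which include the granule proteins, between 3.87 and 4.33, at passages 4, 6 and 16. At passage 10 the ranges were 12.66 to 12.80, over 10 pluripotency genes, and 4.39 to 4.47.

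At passage 4, limma's F-test over the 4 origins of mouse 2 called 5 of 6 members at an adjusted p under 0.05, against 37.9% of all probe sets, and 14 of 36 member pairs of origins passed, against 17.0% of all. At passage 10, 5 of 7 member probe sets passed the F-test, against 25.8% of all, and 15 of 42 pairs, against 12.6%. At passage 16, limma called 0 of 6 members by F-test, with 3 at an unadjusted p under 0.05, and 0 of 36 pairs, with 10 at an unadjusted p under 0.05. The backgrounds at passage 16 were 1.35% and 0.746%. The difference between passage 16 and passage 4 varied among the 4 origins for 4 of the 4 members not selected on it, against 31.6% of all probe sets, in the fit without a block for line.

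S100a4 was higher at passage 16 than at passage 4 in every same-numbered clone of both mice, and so was S100a6. Of all probe sets, 0.965% were higher at passage 16 in all 12 lines of mouse 2 and 0.577% in all 15 lines of both mice, and S100a4 and S100a6 were selected on this pattern. The smallest line differences were 0.01 for S100a4 (T cell clone 1) and 0.04 for S100a6 (granulocyte clone 1 of mouse 2). Of the other members, S100a11 and S100a13 were higher in 8 of 12 lines of mouse 2, S100a10 in 7 and S100a1 in 3. The median difference of all probe sets in mouse 2 was 0.052. By group it ran from -0.012 in fibroblast lines to 0.159 in granulocyte lines of mouse 2.

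In B cell lines, the 3 S100a4 signals were 4.74, 4.78 and 4.34 at passage 4 and 7.30, 7.30 and 8.26 at passage 16, a difference in means of 3.01, or 8.03-fold. In granulocyte lines of mouse 1 they were 5.28, 4.67 and 4.29 at passage 4 and 8.14, 8.03 and 7.63 at passage 16, a difference of 3.18, or 9.09-fold. Both groups held the lowest arrays of passage 4, and neither overlapped between passages. Fibroblast lines read 6.43, 6.26 and 5.66 and then 7.77, 7.81 and 7.95, a difference of 1.72. Granulocyte lines of mouse 2 read 6.44, 6.05 and 6.59 and then 7.03, 7.57 and 7.96, a difference of 1.16. T cell lines began highest and moved least: they read 6.78, 6.77 and 6.44 and then 6.79, 6.81 and 7.18, a difference of 0.26, with the passages separated by 0.01. The plot of S100a4 and S100a6 by origin and passage shows that the groups differed more at passage 4 than at passage 16.

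**Figure D1:**
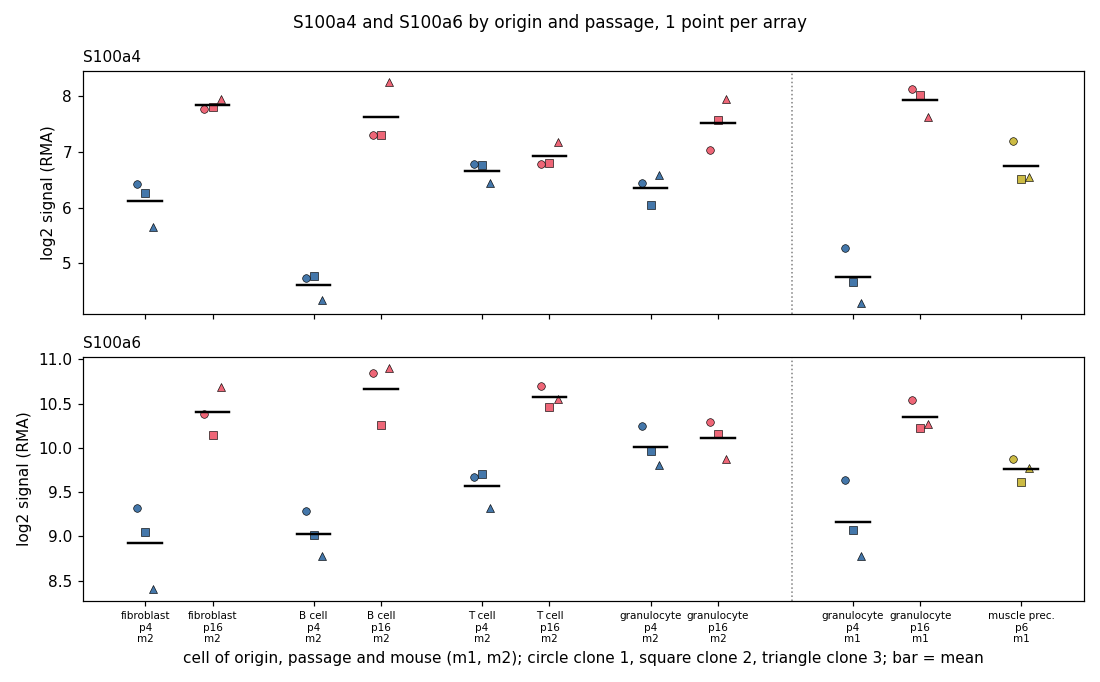
Log2 RMA signal (vertical axes) of S100a4 and S100a6 in each array of passages 4 (blue), 6 (yellow) and 16 (red), by cell of origin and mouse; symbols are clones and bars are means of 3. S100a4 started lowest in B cell lines of mouse 2 and granulocyte lines of mouse 1, with means of 4.62 and 4.75, and all 5 groups measured at passage 16 had means between 6.92 and 7.93.

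S100a6 differed by 1.64 in B cell lines, which read 9.29, 9.01 and 8.78 at passage 4 and 10.85, 10.26 and 10.90 at passage 16. Fibroblast lines read 9.32, 9.05 and 8.40 and then 10.38, 10.15 and 10.69, a difference of 1.48. T cell lines read 9.67, 9.70 and 9.32 and then 10.70, 10.46 and 10.55, a difference of 1.00, larger than that of S100a4 in the same lines. Granulocyte lines of mouse 1 read 9.64, 9.07 and 8.78 and then 10.54, 10.22 and 10.27, a difference of 1.18. None of these 4 groups overlapped between passages. In granulocyte lines of mouse 2 the passages overlapped: 10.25, 9.97 and 9.81 at passage 4 and 10.29, 10.16 and 9.88 at passage 16, a difference of 0.10. That is below the median difference of all probe sets in these lines, 0.159.

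The mean of 27 fibroblast genes (collagens, matrix proteins and other genes that feeder cells and tail tip fibroblasts express) moved with the passage difference in several groups. It was 7.20 at passage 4 and 7.91 at passage 16 in B cell lines, 7.24 and 7.85 in fibroblast lines, 7.47 and 7.80 in granulocyte lines of mouse 2 and 7.34 and 7.88 in those of mouse 1. In T cell lines it moved the other way, from 7.99 to 7.38, while S100a6 was 1.00 higher. Of the 27 genes, 1 was higher at passage 16 in all 12 lines of mouse 2, and their median difference was 0.30. Another 1, Mgp, was lower in all 12, with a mean difference of -2.68. RMA signals have no true zero, so none of these markers can be read as absent. Their part in the S100a4 and S100a6 values was not tested. A fit that adjusts for the list mean was run for each limma comparison. It is named below where a member call changed with it, and the other member calls also passed in it. Where that mean differs with origin, the fit separates them poorly. In bulk RNA, more cells of a type and more RNA per cell cannot be told apart.

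At passage 4, S100a4 was lower in B cell lines than in the lines of each other origin of mouse 2. The B cell lines averaged 4.62 ± 0.24 (SD, n = 3), and the signal was higher in fibroblast lines by 1.50 ± 0.28 (SE; 2.83-fold; limma adjusted p = 0.00044), in T cell lines by 2.05 ± 0.28 (4.13-fold; adjusted p = 2.1e-05) and in granulocyte lines by 1.75 ± 0.28 (3.36-fold; adjusted p = 0.0003). All 3 B cell arrays lay below all 9 others. Fibroblast, granulocyte and T cell lines, in that rising order of 6.12, 6.36 and 6.66, were not separated from their neighbours by the test. After adjustment for the fibroblast mean, the B cell to T cell difference was 0.90 and no longer passed, and the list itself was lower in B cell than in T cell lines for 12 of 27 genes and higher for 0. The 8 endoderm genes averaged 6.87 in the B cell lines, against 5.21 to 5.53 in the other 3 origins, and their part in the S100a4 difference was not tested.

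S100a6 was highest in granulocyte lines at passage 4, at 10.01 ± 0.22 (SD, n = 3), where calcyclin exceeded fibroblast lines by 1.08 ± 0.22 (SE; 2.12-fold; limma adjusted p = 0.00091) and B cell lines by 0.98 ± 0.22 (1.97-fold; adjusted p = 0.0072). The granulocyte arrays did not overlap with those of either origin. The difference from B cell lines did not pass without B cell clone 3 (0.86) or after adjustment for the fibroblast mean (0.76). Fibroblast, B cell and T cell lines, at 8.93, 9.03 and 9.57, were not separated from their neighbours in the order.

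At passage 10 the order of S100a4 had granulocyte lines at the bottom. Fibroblast lines read 11.31, 11.82 and 11.85, B cell lines 11.31, 10.40 and 10.47, T cell lines 10.80, 9.86 and 10.86, and granulocyte lines 9.20, 9.47 and 8.80. No granulocyte array reached any of the other 9. The signal was higher than in granulocyte lines by 2.50 ± 0.30 (SE; 5.67-fold; limma adjusted p = 0.00018) in fibroblast lines, by 1.57 ± 0.30 (2.97-fold; adjusted p = 0.0037) in B cell lines and by 1.35 ± 0.30 (2.55-fold; adjusted p = 0.0078) in T cell lines. S100a6 had the same lowest group: granulocyte lines read 11.82, 11.71 and 11.75, fibroblast lines 12.56, 12.83 and 12.93, B cell lines 12.64, 12.14 and 12.06, and T cell lines 12.34, 12.02 and 12.48. The difference from fibroblast lines was 1.01 ± 0.16 (2.02-fold; adjusted p = 0.00064), and those from B cell and T cell lines were 0.52 ± 0.16 each (adjusted p = 0.033 and 0.032).

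The last pair of S100a6 differences lay near the threshold, and each call was lost when any of several arrays was left out. Without a granulocyte clone the differences stayed close to the 0.52 of the full fit. The difference from B cell lines did not pass without granulocyte clone 1, 2 or 3 (0.54, 0.49 and 0.51) or B cell clone 1 (0.34). That from T cell lines did not pass without granulocyte clone 1, 2 or 3 (0.55, 0.50 and 0.52), T cell clone 1 (0.49) or T cell clone 3 (0.42).

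The fibroblast genes were also highest in fibroblast and lowest in granulocyte lines at passage 10, with B cell and T cell lines between them: the mean of the 33 measured was 9.34 in fibroblast lines, 8.86 in T cell lines, 8.73 in B cell lines and 8.28 in granulocyte lines, and 28 of 33 were higher in fibroblast than in granulocyte lines, with 0 lower. That mean followed origin closely, with SDs of 0.01 to 0.23 within groups, so a fit that holds both cannot separate them well. A call lost in that fit is therefore no result about the fibroblast genes. After adjustment for that mean, none of the 15 called pairs passed, and for S100a4 and S100a6 the sign turned in 5 of 6. S100a4 was then lower than in granulocyte lines by 0.32 in fibroblast and 0.19 in T cell lines, and higher by 0.37 in B cell lines. S100a6 was lower by 0.39 in fibroblast, 0.08 in B cell and 0.25 in T cell lines. Across the 12 arrays, which share origin groups, the correlation with the fibroblast mean was 0.95 for S100a4 and 0.95 for S100a6. It was 0.72 and 0.53 across the 33 arrays of the other passages.

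**Figure D2:**
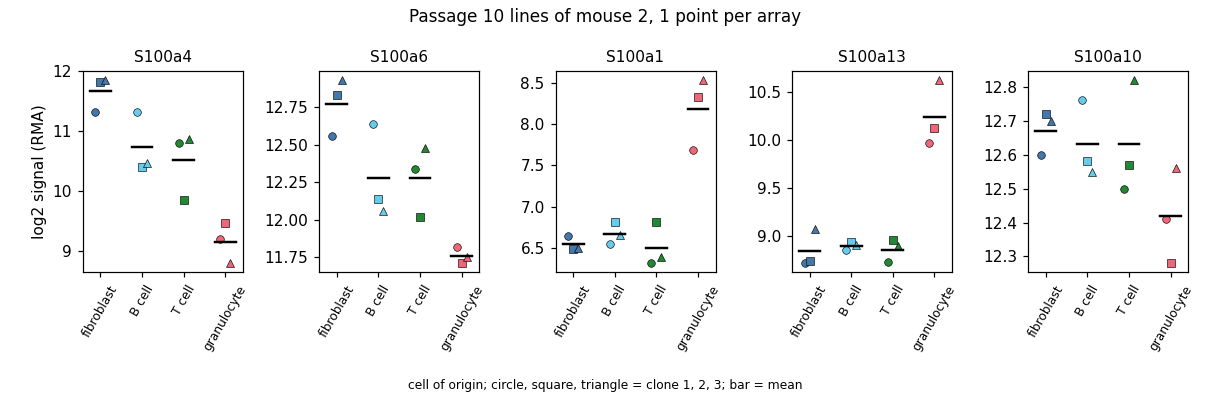
Log2 RMA signal (vertical axes, 1 scale per gene) of 5 members in the 12 passage 10 arrays, by cell of origin (horizontal axes); symbols are clones and bars are means of 3. Granulocyte lines lie apart from the other origins in the first 4 panels, lower for S100a4 (mean 9.16) and S100a6 (11.76) and higher for S100a1 (8.19) and S100a13 (10.24), while S100a10 spans 12.28 to 12.82 over all arrays.

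At passage 16 the origins of mouse 2 were closer in S100a4 and S100a6. The S100a4 means were 6.92 in T cell, 7.52 in granulocyte, 7.62 in B cell and 7.84 in fibroblast lines, and the largest difference, 0.92 between T cell and fibroblast lines, had a limma adjusted p of 0.12. The S100a6 means were 10.11 in granulocyte, 10.41 in fibroblast, 10.57 in T cell and 10.67 in B cell lines, with a largest difference of 0.56 (adjusted p = 0.17). These p-values do not show that the origins were alike.

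S100a10, the annexin A2 partner, had its highest group mean in the passage 4 granulocyte lines of mouse 2 and its lowest in the same lines at passage 16. The clones read 10.34, 10.30 and 9.80 at passage 4 and 8.97, 8.79 and 7.31 at passage 16, with no overlap, and the passage 16 minus passage 4 difference was -1.79. The other 4 groups overlapped between passages, with differences from -0.11 in B cell lines to 0.47 in fibroblast lines. The difference varied among the 4 origins (limma F-test, adjusted p = 0.00075). The lowest value, 7.31, came from the array that correlated least with its group, and the differences of clones 1 and 2 alone were -1.37 and -1.51. In the same lines the mean of 8 endoderm genes was 5.21 at passage 4 and 6.39 at passage 16, and the pluripotency mean 11.46 and 10.88, and their part in the S100a10 and S100a11 values was not tested. S100a11, the annexin A1 partner, moved the same way by less: granulocyte lines read 11.77, 11.70 and 11.56 and then 11.32, 11.35 and 10.60, a difference of -0.59, against 0.18 to 0.44 in the other 3 origins of mouse 2 (adjusted p = 0.018). That call did not hold with the line as a replicate block (adjusted p = 0.058), with the compared arrays only (0.052), without passage 4 granulocyte clone 1 (0.055) or passage 16 granulocyte clone 3 (0.063), within a range of 0.0061 to 0.063 over all alternatives run.

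**Figure D3:**
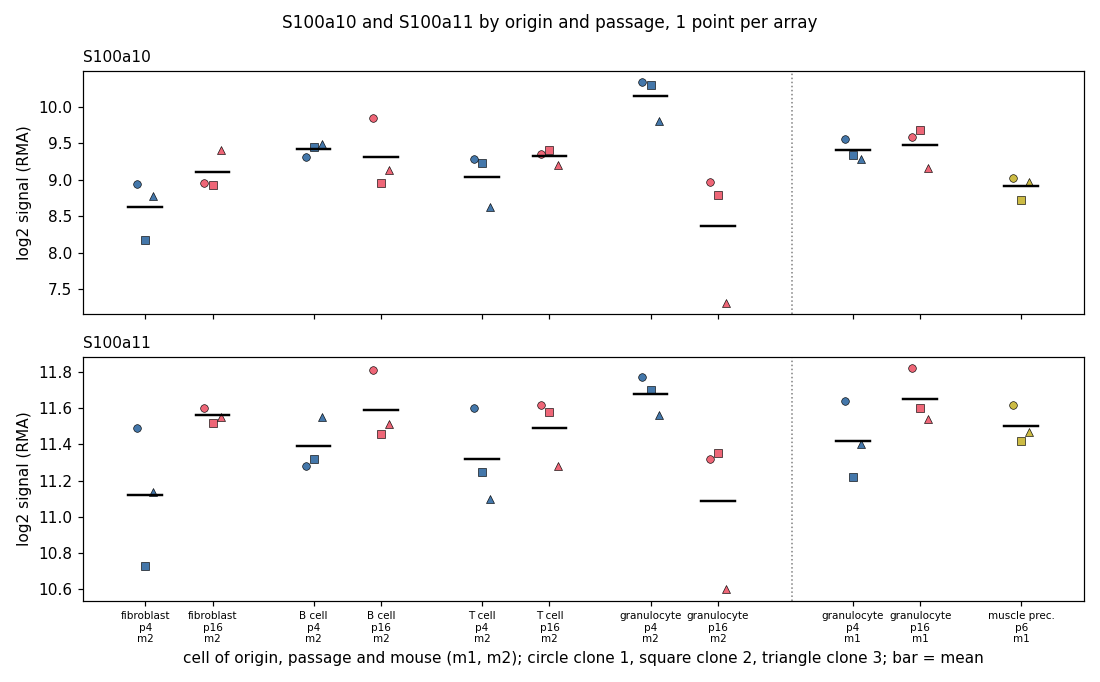
Log2 RMA signal (vertical axes) of S100a10 and S100a11 in each array of passages 4 (blue), 6 (yellow) and 16 (red), by cell of origin and mouse; symbols are clones and bars are means of 3. In granulocyte lines of mouse 2 the passage 16 arrays lie below those of passage 4 for both genes, with S100a10 means of 8.36 and 10.15, and no other group separates in this direction. In fibroblast lines the passage 16 arrays of S100a11 lie above those of passage 4.

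At passage 4, S100a10 in granulocyte lines, at 10.15 ± 0.30 (SD, n = 3), exceeded fibroblast lines by 1.53 ± 0.30 (SE; 2.88-fold; limma adjusted p = 0.00053) and T cell lines by 1.11 ± 0.30 (2.15-fold; adjusted p = 0.007). The second difference did not pass without T cell clone 3 (0.90) or after adjustment for the fibroblast mean (0.95). S100a11 had 1 called pair at passage 4, granulocyte above fibroblast lines by 0.56 ± 0.19 (adjusted p = 0.03), while its F-test missed the threshold (adjusted p = 0.1). That pair did not pass without fibroblast clone 2 (0.36), fibroblast clone 3 (0.57), granulocyte clone 1 (0.51) or granulocyte clone 2 (0.55). Nor did it pass in a fit of that pair's arrays alone. The F-test passed without fibroblast clone 1, with clone number as a block, and without granulocyte clone 3 of mouse 2 at passage 16. At passage 10, neither S100a10 probe set differed among the origins by F-test (limma adjusted p = 0.29 and 0.21), and the largest pair differences were 0.32 and 0.25. At passage 16, the F-test for S100a10 gave an adjusted p of 0.15, and it passed without granulocyte clone 1 (0.049) or clone 2 (0.04), within a range of 0.04 to 0.8 over all alternatives run.

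S100a13, the growth factor release protein, stood highest in T cell lines at passage 4. The T cell clones read 9.50, 9.71 and 9.98, granulocyte clones 7.73, 8.21 and 8.13, fibroblast clones 8.16, 6.59 and 7.44, and B cell clones 6.71, 6.73 and 7.80. No T cell array overlapped with any of the other 9. T cell lines exceeded B cell lines by 2.65 ± 0.35 (SE; 6.29-fold; limma adjusted p = 1.8e-05), fibroblast lines by 2.33 ± 0.35 (5.04-fold; adjusted p = 9.8e-05) and granulocyte lines by 1.70 ± 0.35 (3.26-fold; adjusted p = 0.00072). S100a1, its head-to-head neighbour, was also highest in T cell lines, which read 6.21, 6.20 and 5.93. S100a1 was lower in B cell lines by 0.93 ± 0.20 (adjusted p = 0.0028), in fibroblast lines by 0.81 ± 0.20 (adjusted p = 0.01) and in granulocyte lines by 0.77 ± 0.20 (adjusted p = 0.0063). The difference from fibroblast lines did not pass without fibroblast clone 2 (0.72) or in a fit of the arrays of that pair alone.

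By passage 16 the T cell lines no longer stood apart. Their S100a13 clones read 7.69, 7.72 and 8.20, a passage 16 minus passage 4 difference of -1.86, and their S100a1 clones read 4.87, 4.91 and 4.83, a difference of -1.25. Neither gene overlapped between passages in T cell lines. In B cell and fibroblast lines S100a13 went the other way, with differences of 1.03 and 0.82, though the passages overlapped. In granulocyte lines of mouse 2 the difference was 0.13, also with overlap, and in those of mouse 1 it was 1.37, without overlap. The variation among origins passed for S100a13 (limma F-test, adjusted p = 0.00034), though not after adjustment for the fibroblast mean, and for S100a1 (adjusted p = 0.014), though not for S100a1 with the line as a replicate block (adjusted p = 0.098, the highest over all alternatives run, from a lowest of 0.0032). At passage 16 all 4 S100a13 means lay between 7.87 and 8.22.

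**Figure D4:**
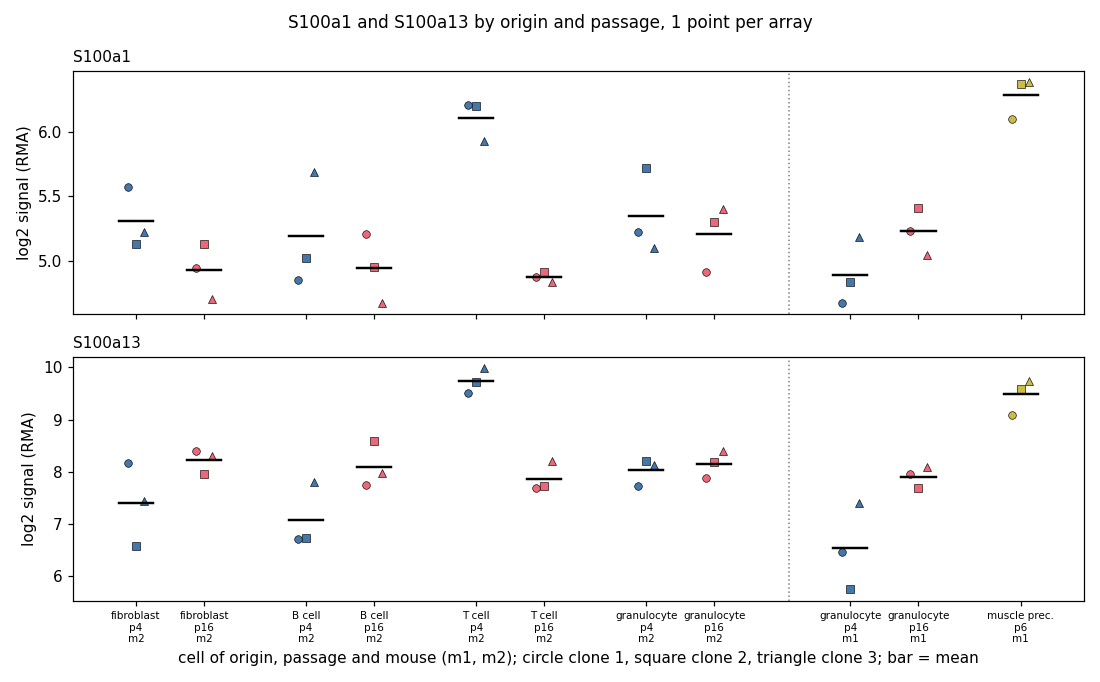
Log2 RMA signal (vertical axes) of S100a1 and S100a13 in each array of passages 4 (blue), 6 (yellow) and 16 (red), by cell of origin and mouse; symbols are clones and bars are means of 3. Both genes are highest in passage 4 T cell lines (means 6.11 and 9.73) and passage 6 muscle precursor lines (6.29 and 9.48), and both are lower in T cell lines at passage 16 (4.87 and 7.87).

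At passage 10 it was the granulocyte lines in which S100a13 and S100a1 stood highest. Granulocyte clones read 9.97, 10.13 and 10.63 for S100a13, and the 9 others lay between 8.71 and 9.07, a gap wider than the spread within any group. The granulocyte lines exceeded fibroblast, B cell and T cell lines by 1.41, 1.35 and 1.39, each ± 0.15 (SE; limma adjusted p = 0.00013, 0.00062 and 0.00048). S100a1 has a pair of probe sets on this platform. The one with the higher mean, of the kind that matches several transcripts, read 7.69, 8.33 and 8.54 in granulocyte lines and 6.31 to 6.81 in the 9 others. Its differences were 1.65, 1.51 and 1.68 ± 0.19 (adjusted p = 0.00015, 0.00067 and 0.00052), and those of the other probe set were 1.36, 1.28 and 1.12 ± 0.17 (adjusted p = 0.00024, 0.00088 and 0.0016). After adjustment for the fibroblast mean, which followed origin at passage 10, none of these 9 differences passed. Granulocyte lines stayed higher by 1.26, 1.29 and 1.31 for S100a13 and by 1.43, 1.31 and 1.16 for the second S100a1 probe set, while the first had 0.55, 1.05 and 1.09.

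Epithelial genes (keratins, claudins, E-cadherin and others) moved with S100a1 and S100a13. The mean of the 8 genes was highest, at 10.58, in both the passage 4 T cell lines and the muscle precursor lines, and was 9.41 to 10.04 in the other passage 4 groups. At passage 10 it was 10.81 in granulocyte lines and 10.01 to 10.42 in the other origins, and 6 of 8 genes were higher in granulocyte than in fibroblast lines. Across the 33 arrays the correlation with this mean was 0.77 for S100a1 and 0.57 for S100a13, and across the 12 arrays 0.74 and 0.79. The fibroblast mean was likewise highest in the passage 4 T cell (7.99) and muscle precursor lines (8.04), and its correlation over the 33 arrays was 0.35 for S100a1 and 0.67 for S100a13. At passage 10, where that mean was lowest in granulocyte lines, the correlations over the 12 arrays were -0.80 and -0.76. The part of the epithelial genes in the S100a1 and S100a13 differences was not tested. The 2 members themselves correlated at 0.74 over 33 arrays and 0.97 over 12, S100a4 with S100a6 at 0.80 and 0.97, and S100a10 with S100a11 at 0.81 over 33, as descriptions of arrays that share origins, clones and passages.

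**Figure D5:**
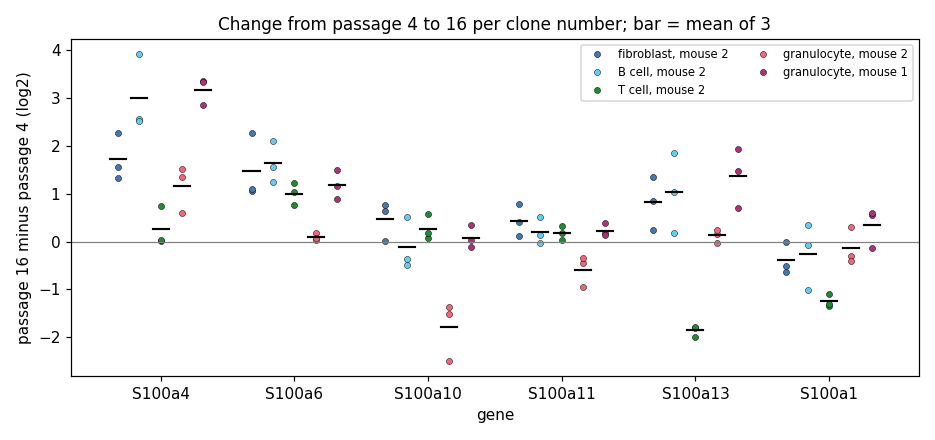
Passage 16 minus passage 4 difference in log2 RMA signal (vertical axis) for each member (horizontal axis), per same-numbered clone (points) and as the mean of 3 (bars), by origin and mouse. All points of S100a4 and S100a6 lie above 0, S100a10 is below 0 in granulocyte lines of mouse 2 (mean -1.79), and S100a13 and S100a1 are below 0 in T cell lines (means -1.86 and -1.25).

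The granulocyte lines allow the same origin to be compared between mice, each mouse being 1 animal. At passage 4, 3 of 6 members differed, against 6.46% of all probe sets, and all 3 were lower in mouse 1. S100a4 was lower by 1.61 ± 0.28 (SE; 3.06-fold; limma adjusted p = 0.0007), S100a13 by 1.49 ± 0.35 (2.8-fold; adjusted p = 0.011) and S100a6 by 0.85 ± 0.22 (1.8-fold; adjusted p = 0.022). S100a4 of mouse 1 did not overlap with that of mouse 2. S100a13 did not pass without clone 2 of mouse 1 (1.09) or clone 2 of mouse 2 (1.39), and S100a6 did not without clone 2 or 3 of mouse 1 (0.80 and 0.65) or clone 1 or 2 of mouse 2 (0.73 and 0.86). At that passage the fibroblast mean was 7.34 and 7.47 in mouse 1 and mouse 2, and the endoderm mean 7.08 and 5.21, whose part was not tested.

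At passage 16, 2 of 6 members differed between the mice, against 18.0% of all probe sets, and neither was S100a4 or S100a6. S100a10 was higher in mouse 1 by 1.12 ± 0.30 (limma adjusted p = 0.023) and S100a11 by 0.57 ± 0.19 (adjusted p = 0.04). Without granulocyte clone 3 of mouse 2, the differences were 0.60 and 0.32 and neither passed. They also did not pass without clone 1 of mouse 1 (1.07 and 0.49) or clone 2 of mouse 1 (1.02 and 0.59). The signed passage 16 minus passage 4 difference was not the same in both mice for 1 of the 4 members not selected on it, against 2.83% of all probe sets. S100a10 differed by 0.08 between passages in mouse 1 and by -1.79 in mouse 2, and the first minus the second was 1.88 ± 0.42 (SE; adjusted p = 0.017). With the line as a replicate block that call was lost (adjusted p = 0.079), within a range of 0.006 to 0.13 over all alternatives run. In a fit of the compared arrays only, 0 members passed at passage 16, and 0 of those not selected on passage passed for the passage difference. The S100a10 call did not hold without passage 16 clone 1 or 2 of mouse 1 (1.82 and 1.78) or passage 4 clone 1 or 2 of mouse 2 (1.78 and 1.80). S100a11 passed without passage 16 clone 1 or 2 of mouse 2 (0.94 and 0.95).

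Muscle precursor lines, at passage 6, were set against granulocyte lines of the same mouse at passage 4, so origin and passage cannot be told apart. Of the 6 members, 3 were higher in muscle precursor lines, against 20.6% of all probe sets called. S100a13 read 9.09, 9.59 and 9.74 against 6.47, 5.75 and 7.40, a difference of 2.94 ± 0.35 (SE; 7.65-fold; limma adjusted p = 1.8e-06). S100a4 read 7.19, 6.51 and 6.56 against 5.28, 4.67 and 4.29, a difference of 2.00 ± 0.28 (4.01-fold; adjusted p = 1e-05). S100a1 read 6.10, 6.37 and 6.39 against 4.67, 4.83 and 5.18, a difference of 1.39 ± 0.20 (2.63-fold; adjusted p = 2.3e-05). None of these groups overlapped. S100a6 differed by 0.59 ± 0.22 (adjusted p = 0.062) and missed the threshold. It passed without passage 4 granulocyte clone 1 (0.83), and also with clone number as a block, with cyclic loess, without dim probe sets and without granulocyte clone 3 of mouse 2 at passage 16. S100a10 and S100a11 differed by -0.49 and 0.08, and S100a10 passed in a fit of the compared arrays only. Fibroblast genes were higher in muscle precursor lines for 13 of 27, with 0 lower, and epithelial genes for 4 of 8, with 0 lower, while endoderm genes were lower for 4 of 8, with 0 higher (means of 5.33 and 7.08). The part of the epithelial and endoderm genes was not tested. After adjustment for the fibroblast mean, the S100a4 difference was 0.98 and no longer passed.

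Of the 8 other S100 genes measured, limma's F-test called 0 among the origins at passage 4, with 0 at an unadjusted p under 0.05. In the comparison of passage differences among origins it also called 0, with 0 at an unadjusted p under 0.05. Outside passage 10, the group means of these 8 genes lay between 4.1 and 4.64, close to the granulocyte genes (3.87 to 4.33). At such low signals, a lack of calls says little about these genes. At passage 10, where their group means were 4.71 to 4.86, the F-test called 1 of 8 (adjusted p = 0.019). This was S100g, a calcium carrier of the intestine, whose B cell lines averaged 4.23 and the others 3.69 to 3.86. S100a5 was the 1 of these 8 genes that was higher at passage 16 in all 12 lines of mouse 2, by a mean of 0.38. The neutrophil pair S100a8 and S100a9 was higher in 10 and 9 of the 12 lines, by 0.25 and 0.22. In passage 16 granulocyte lines of mouse 2 the pair averaged 4.33 ± 0.93 and 5.06 ± 0.81 (SD), with highest arrays of 5.39 and 5.95. The mean of the 8 genes was also highest in these lines, with an SD of 0.59. The passage differences of S100a5, S100a8 and S100a9 are small, at low signals, and were not tested.

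Annexins, which S100 proteins bind, varied among the origins for 7 of 11 at passage 4 (all probe sets, 37.9%), 6 of 11 at passage 10 (25.8%) and 0 of 11 at passage 16 (3 at an unadjusted p under 0.05, limma). Anxa2, the partner of S100a10, was lowest in fibroblast lines at passage 4, at 8.67 ± 0.73 (SD, n = 3), and 2.02 ± 0.27 (SE) below granulocyte lines (adjusted p = 8.1e-06), the same pair in which S100a10 differed most. At passage 10 Anxa2 averaged 11.58 in granulocyte lines and 10.99 to 11.07 in the others. Anxa1, the partner of S100a11, was higher in fibroblast than in granulocyte lines at passage 10 by 1.46 ± 0.20 (adjusted p = 0.00031). Anxa8 was higher in muscle precursor than in granulocyte lines of mouse 1 by 2.26 ± 0.39 (adjusted p = 0.00016), and in that comparison 4 of 11 annexins were higher and 1, Anxa6, was lower (20.6% of all probe sets called). The passage difference varied among origins for 6 of 11 annexins (31.6% of all), led by Anxa2 (adjusted p = 0.0003), in a fit without a block for line.

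Other binding partners passed the F-test over origins for 5 of 10 genes at passage 4 (37.9% of all probe sets), 1 of 11 at passage 10 (25.8%) and 0 of 10 at passage 16 (3 at an unadjusted p under 0.05, limma). Ahnak, a large membrane scaffold that binds the complex of S100a10 and annexin A2, averaged 12.39 (passage 4) and 10.87 (passage 16) in granulocyte lines of mouse 2, against 11.93 and 11.68 in those of mouse 1. Its passage difference varied among the origins of mouse 2 in the fit without a block for line (adjusted p = 0.00013). Ryr1, a ryanodine receptor and partner of S100a1, varied at passage 4 (adjusted p = 1.6e-06), and granulocyte lines were lower than fibroblast lines by 2.10 ± 0.23 (SE). Other EF-hand proteins passed for 2 of 8 at passage 4 (Calb2, calretinin, adjusted p = 4.7e-05, and Calm3, a calmodulin gene, adjusted p = 0.00029), for 1 of 6 at passage 10 and 0 of 8 at passage 16, against the same shares of all probe sets (1 at an unadjusted p under 0.05).

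The 5 genes most like S100a4 over the 33 arrays, by Pearson's r, were Col6a3 (0.91), Col6a1 (0.89), Lgals3bp (0.86), Col5a1 (0.85) and Peak1 (0.84). Over the 12 passage 10 arrays the collagens, which are fibroblast matrix genes, stood at 0.84, 0.86 and 0.78, Lgals3bp at 0.51 and Peak1 at -0.80. Those most like S100a6 were Stc2 (0.89), Ugdh (0.88), Hnrnpl (0.83), Nfe2l1 (0.82) and Col6a3 (0.81). Over the passage 10 arrays Col6a3 stood at 0.83 with S100a6, Nfe2l1 at 0.33, and Stc2, Ugdh and Hnrnpl at -0.76, -0.48 and -0.37. The arrays share origins, clones and passages, and these correlations are descriptions.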

How the data were processed

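RNA of 45 iPSC cultures was measured on expression arrays of a pair of platforms, 33 arrays at passages 4, 6 and 16 and 12 at passage 10. The authors deposited log2 signals made with RMA, per the submitters' processing notes, and the version and background settings are not given in the sources used here. RMA pulls arrays to 1 distribution within a table, so levels are relative to that table. Groups follow the labels, each with 3 clones, and 0 value columns were left unmatched. Probe sets were named through the platform annotation: 18003 and 20393 of 22690 had 1 symbol, 287 and 691 had several and went unnamed, and 4400 and 1606 had none.

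The package limma 3.58.1 (R 4.3.3) was run on each table separately, estimating a mean for every group from all arrays, with empirical Bayes variances and Benjamini-Hochberg adjustment over all probe sets per contrast (threshold 0.05). The procedure was tested on simulated data. A gene with several probe sets was represented by the one with the highest mean. Members and lists were chosen with earlier results of these data known, and no p is adjusted over a list. From each other list, up to 4 called genes with the smallest adjusted p were eligible to be named, plus the partners of the members described and S100a5, S100a8 and S100a9, which were chosen after their values were seen. The 5 genes most like S100a4 and S100a6 were taken by Pearson's r. Quantile and cyclic loess normalization, a filter on dim probe sets, 1 probe set per gene, a fit of the compared arrays only, blocks for clone number or line, adjustment for the fibroblast list mean, and leaving out each array were tried. Arrays give no counts, so precision rests on the number of clones. The labels give the same mouse, origin and clone number at passages 4 and 16, so these arrays were taken as pairs of 1 line. As deviations from group means the pairs correlated from -0.35 to 0.377 (median 0.144), above 0.1 in 8 of 15, and 9 of 15 passage 16 arrays correlated best with their own number.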

Additional observations from a re-analysis of the deposited data

Results flagged for a closer look

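The passage 16 minus passage 4 difference varied among the 4 origins of mouse 2 for the 4 members not selected on it, by limma's F-test of the interaction with adjustment over all probe sets and without a block for line. The adjusted p was 0.00034 for S100a13, from -1.86 in T cell to 1.03 in B cell lines, and 0.00075 for S100a10, from -1.79 in granulocyte to 0.47 in fibroblast lines. It was 0.014 for S100a1 (-1.25 to -0.14) and 0.018 for S100a11 (-0.59 to 0.44). With the line as a replicate block the S100a1 and S100a11 calls were lost (adjusted p = 0.098 and 0.058), S100a11 was also lost with the compared arrays only (0.052), and S100a13 was lost after adjustment for the fibroblast mean (0.063). S100a11 was lost as well without granulocyte clone 1 at passage 4 (0.055) or clone 3 at passage 16 (0.063). Over all alternatives run, the adjusted p ranged from 0.0032 to 0.098 for S100a1, from 0.0061 to 0.063 for S100a11 and from 0.00011 to 0.063 for S100a13. Among all probe sets 31.6% passed the test without the block.

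In granulocyte lines, the passage 16 minus passage 4 difference of S100a10 was 0.08 in mouse 1 and -1.79 in mouse 2, and these differed (limma adjusted p = 0.017), with 1 animal on each side. That call was lost with the compared arrays only (adjusted p = 0.13) and with the line as a replicate block (0.079), and also without passage 16 clone 1 or 2 of mouse 1 (0.053 and 0.059) or passage 4 clone 1 or 2 of mouse 2 (0.052 and 0.055), within a range of 0.006 to 0.13 over all alternatives run.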

How the results depend on the processing

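The 5 members called by F-test and the 14 called pairs at passage 4 stayed within 1.5 times these counts under every alternative run. So did the 3 calls of the muscle precursor comparison. The 2 genes higher in all 12 lines were selected on that pattern, so their count is no result. At passage 10, the F-test calls were 3 without dim probe sets, which tests 5 member probe sets, and 0 after adjustment for the fibroblast mean, which also left 0 of the 15 pairs. That mean followed origin, so the fit cannot separate them well, and the cause was not tested. After that adjustment the differences from granulocyte lines reversed to -0.32 (fibroblast) and -0.19 (T cell) for S100a4 and to -0.39 (fibroblast), -0.08 (B cell) and -0.25 (T cell) for S100a6. At passage 16, pair calls were 1 with cyclic loess and 1 with clone number as a replicate block, and 0 to 5 when 1 array was left out, with F-test calls of 0 to 1. Among the members not selected on passage, the S100a10 call for the passage difference between the mice was lost with the compared arrays only and with the line as a replicate block. It was also lost without any of the arrays named above, each left out in turn. The granulocyte comparison at passage 4 had 1 to 3 calls when 1 array was left out. That at passage 16 had 1 with quantile normalization, 1 with cyclic loess, 0 with the compared arrays only, and 0 to 2 when 1 array was left out. With the line as a replicate block, the interaction calls of S100a1 (adjusted p = 0.098) and S100a11 (0.058) and the S100a10 call between the mice were lost. With that block, the other results of the members not selected on passage stayed on their side of the threshold. A fit without granulocyte clone 3 of mouse 2 at passage 16, chosen after seeing the data, raised 3 member results past the threshold. With 3 clones per group and 1 mouse per origin, small differences cannot be resolved, and signal over background was not given for these arrays in the files used.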
